A study of Homo sapiens with 6 samples.

Results

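The genes of DNA replication and nucleotide supply described here are 40 genes, chosen by symbol from 67026 gene rows of the count table and sorted into 4 steps. The steps are licensing of replication origins (10 genes), the replication fork (22 genes), the supply of nucleotides (4 genes) and the E2F factors with the cyclins E (4 genes). RNA was sequenced from xenografts of the human prostate cancer cell line PC-3, in 2 groups of 3 tumours. In shVCAN tumours a lentiviral hairpin RNA was directed against VCAN, the gene of the matrix proteoglycan versican, and in shGFP tumours the hairpin was directed against GFP as the control. All cells of both groups had been selected with puromycin at 2 µg/mL, and 1200000 cells in 50% Matrigel were placed under the skin of male NSG mice (NOD.Cg-Prkdcscid Il2rgtm1Wjl/SzJ) aged 4 to 5 weeks. These mice have no mature lymphocytes of their own, keep other host cells such as vessel, stromal and myeloid cells, and had their tumours measured for 4 weeks. The comparison addresses which transcripts differ between tumours grown from cells with and without the knockdown of versican. The labels do not say how many hairpins or clones were used, nor whether each numbered tumour came from a separate mouse, so p-values measure the spread between these samples.

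Before S phase, the origin recognition complex with CDC6 and CDT1 loads the ring-shaped MCM2-7 helicase onto DNA, which licenses an origin. CDC45 and the GINS complex then switch the helicase on, and polymerases, the sliding clamp PCNA and its loader copy the opened strands from deoxynucleotides that ribonucleotide reductase and thymidylate synthase supply. Most of these genes are transcribed late in G1 under the E2F factors, and cyclin E with its kinase CDK2 drives the entry into S phase, so in tumour tissue their transcripts are often read as a sign of cycling cells. In bulk tumour RNA, fewer cells of a type and less RNA per cell cannot be told apart.

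Of the 40 genes, 39 passed the filter on low counts and were tested. In shVCAN tumours 14 of the 39 were higher (35.9%) and 2 were lower (5.13%), and 23 were not called, at an adjusted p under 0.05 from edgeR's quasi-likelihood test with Benjamini-Hochberg adjustment over all 16254 tested genes. Over all tested genes, 19.2% were called higher and 21.1% lower. In either direction 16 of the 39 were called, against 40.3% of all tested genes, so the share of called genes was near that of all genes and the list leaned to higher calls. The median log2 fold change, shVCAN over shGFP, was 0.12 over the 39 genes and 0.00136 over all tested genes. The gene-wise values ran between -0.48 for MCM3 and 0.74 for CCNE2, with 32 above 0 and 6 below it. The changes were therefore small in size and unequal between genes. Thymidylate synthase TYMS, the clamp PCNA, the large reductase subunit RRM1, the helicase activator GINS2 and cyclin E2 (CCNE2) were among the higher genes, while the lower genes were MCM3, a subunit of the helicase ring, and LIG1, the ligase that joins Okazaki fragments.

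**Figure D1:**
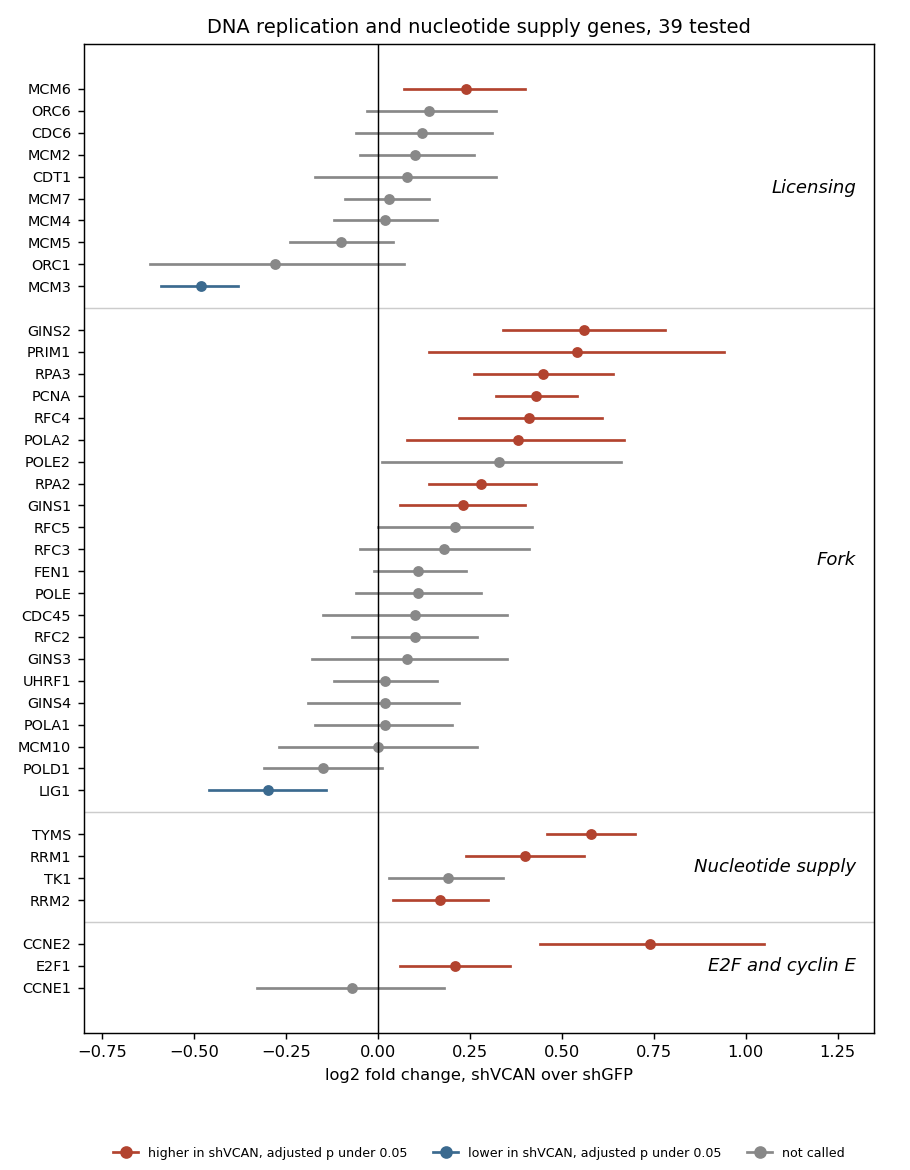
Log2 fold change of shVCAN over shGFP tumours (x axis) for the 39 tested genes, grouped by step, with 95% intervals from the standard error and n = 3 tumours per group. Of the 39 genes, 14 were called higher and 2 lower (MCM3 and LIG1), and 23 were not called.

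Levels did not overlap between the groups, with all 3 shVCAN tumours higher, for 14 of the 39 genes, against 23.9% of all tested genes. They did not overlap in the other direction for 3 of the 39 genes, against 24.8% of all tested genes. The genes without overlap include POLE2, RFC5 and ORC1, which were not called, and leave out RRM2 and POLA2, which were called though their groups overlapped. Summed over the 40 genes, the level was 1963 to 2007 CPM (counts per 1000000 counts of the library, whose size is scaled by TMM) in shVCAN tumours and 1792 to 1875 CPM in shGFP tumours. The sum was higher in shVCAN tumours for nucleotide supply (357 to 370.2 CPM, against 267 to 311 CPM in shGFP tumours), for the fork (908 to 939 CPM, against 806 to 840.3 CPM) and for E2F factors and cyclins E (84.7 to 92.6 CPM, against 72.2 to 77.0 CPM). It was lower for licensing, at 588 to 613 CPM in shVCAN tumours and 625 to 667 CPM in shGFP tumours. Without MCM3 the licensing sum was 449 to 467 CPM in shVCAN tumours and 429 to 461 CPM in shGFP tumours, and the groups overlapped, a sum chosen after the values were seen.

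Promoter windows are printed for the 4 higher genes with the smallest p among those whose window holds an E2F word, and for MCM3, the lower gene with the smallest p, because E2F factors are known regulators of these genes and the windows show where its binding words lie. The windows come from RefSeq on GRCh38.p14 and run from 250 bases before the transcript start to 50 bases after it, 5′ to 3′ on the gene's strand. TYMS is at chr18:657403-657702 on the plus strand, PCNA at chr20:5126573-5126872 on the minus strand, GINS2 at chr16:85688905-85689204 on the minus strand, MCM6 at chr2:135876394-135876693 on the minus strand and MCM3 at chr6:52284693-52284992 on the minus strand. Capitals mark the words TTTCCCGC, TTTGGCGC, TTTGCCGC or TTTCGCGC on either strand, so GCGGGAAA is the first word read from the other strand.
TYMS: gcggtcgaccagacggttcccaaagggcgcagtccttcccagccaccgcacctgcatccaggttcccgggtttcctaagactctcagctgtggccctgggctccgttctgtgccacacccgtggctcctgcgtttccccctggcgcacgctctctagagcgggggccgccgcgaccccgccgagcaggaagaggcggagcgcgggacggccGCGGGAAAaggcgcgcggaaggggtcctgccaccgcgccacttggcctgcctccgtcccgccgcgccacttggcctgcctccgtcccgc
PCNA: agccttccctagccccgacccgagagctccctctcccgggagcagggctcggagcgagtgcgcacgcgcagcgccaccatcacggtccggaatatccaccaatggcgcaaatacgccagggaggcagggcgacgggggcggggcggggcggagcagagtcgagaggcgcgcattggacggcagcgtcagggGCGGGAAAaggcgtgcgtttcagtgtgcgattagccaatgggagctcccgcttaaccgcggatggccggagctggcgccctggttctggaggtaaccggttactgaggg
GINS2: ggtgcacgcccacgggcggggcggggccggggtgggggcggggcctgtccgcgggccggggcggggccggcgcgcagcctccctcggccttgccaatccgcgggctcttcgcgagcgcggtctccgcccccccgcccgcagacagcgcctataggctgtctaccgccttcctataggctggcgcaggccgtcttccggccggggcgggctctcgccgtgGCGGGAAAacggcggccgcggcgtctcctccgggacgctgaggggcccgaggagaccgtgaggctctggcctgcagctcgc
MCM6: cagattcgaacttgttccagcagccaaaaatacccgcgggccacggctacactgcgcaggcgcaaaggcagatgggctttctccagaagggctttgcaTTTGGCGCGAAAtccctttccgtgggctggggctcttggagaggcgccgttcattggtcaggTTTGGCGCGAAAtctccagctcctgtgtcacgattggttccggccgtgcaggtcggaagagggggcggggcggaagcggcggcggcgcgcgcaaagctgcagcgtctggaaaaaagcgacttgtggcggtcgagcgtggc
MCM3: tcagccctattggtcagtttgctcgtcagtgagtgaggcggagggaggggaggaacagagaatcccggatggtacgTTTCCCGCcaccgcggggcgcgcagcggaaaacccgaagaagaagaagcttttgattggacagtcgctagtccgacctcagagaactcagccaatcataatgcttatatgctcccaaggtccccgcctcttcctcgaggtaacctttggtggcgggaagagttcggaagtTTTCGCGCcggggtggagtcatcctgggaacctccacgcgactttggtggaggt
The word lies 39 bases before the start in TYMS, 59 before it in PCNA and 31 before it in GINS2, counted to the word's first base. MCM6 has 4 matches, at 152, 148, 90 and 86 bases before the start, which form 2 pairs whose words overlap by 4 bases. MCM3 has matches 174 and 4 bases before its start. The windows of the higher genes RRM1, RRM2, RFC4 and PRIM1 hold no such word.

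Windows were found for 34 of the 40 genes. MCM4, MCM5, GINS4, RPA2, RPA3 and CCNE2 were without one. At least 1 of the 4 E2F words was in 20 of the 34 windows (58.8%), against 3.33% of 27305 gene windows (1 per symbol, the first listed of 35116) and 5.05% of the windows of tested genes. By call, the words were in 7 of 11 windows of higher genes, in both windows of lower genes (2 of 2) and in 10 of 20 windows of genes that were not called. The word was thus present in windows of genes of every call. CCAAT on either strand, the word of the factor NF-Y, was in 19 of 34 windows (55.9%), against 35.7% of all gene windows and 36.1% of those of tested genes. TTTGAA, a word of the CHR element of late cell cycle genes, was in 1 of 34 windows, that of RRM1. It was in 15.4% of all gene windows and 9.95% of those of tested genes. A match describes letters in a window and was not tested as a binding site.

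**Figure D2:**
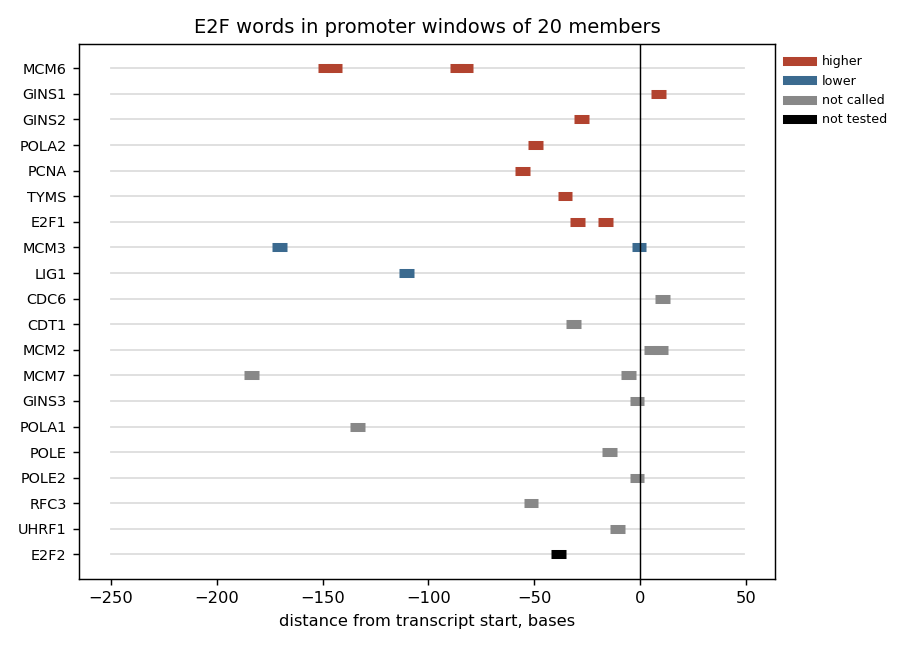
Position of E2F words (coloured bars, 8 bases each) along the promoter windows of the 20 genes that hold one, in bases from the transcript start at 0. Bars are coloured by the call of the gene, and both lower genes, MCM3 and LIG1, and 7 higher genes hold a word.

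Nucleotide supply had the highest median log2 fold change of the 4 steps (0.30). Of its 4 genes, 3 were called higher and none lower, against 19.2% and 21.1% of all tested genes. TYMS, thymidylate synthase, which makes the thymidine nucleotide, had 137, 138 and 139 CPM in shVCAN tumours and 89.0, 99.4 and 89.0 CPM in shGFP tumours. All 3 shVCAN tumours lay above all shGFP tumours, and they lay closer together than those of any other tested gene of the 40 (coefficient of variation 0.519%). Counting error alone would give 2.29%, so this closeness is not read as a trait of TYMS. TYMS had a log2 fold change of 0.58 (SE 0.0612, adjusted p = 5.77e-09). It spans 657604 to 673578 on chromosome 18, plus strand, and 46.6% of its exonic bases are also those of other genes. The antisense gene ENOSF1 had a log2 fold change of 0.11 (adjusted p = 0.255) and the antisense TYMSOS one of 0.61 (adjusted p = 0.0752), and reads of the 2 strands cannot be told apart where the strand setting is not given.

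Ribonucleotide reductase turns ribonucleotides into deoxyribonucleotides, with RRM1 as its large subunit and RRM2 as the small subunit made in S phase. RRM1 had 51.1, 49.5 and 47.8 CPM in shVCAN tumours and 40.1, 36.0 and 36.4 CPM in shGFP tumours, and the groups did not overlap. Its log2 fold change was 0.40 (SE 0.0814, adjusted p = 0.0002). RRM2 had 101, 97.8 and 96.0 CPM in shVCAN tumours and 85.9, 96.2 and 80.3 CPM in shGFP tumours. The third shVCAN tumour lay just under the second shGFP tumour, so the groups overlapped. Of the exonic bases of RRM2, 20.2% are shared with other genes. RRM2 was called at a log2 fold change of 0.17 (SE 0.0674, adjusted p = 0.0454), and leaving out shGFP tumour 3 ended the call (0.12, adjusted p = 0.25), as did the fits without shGFP tumour 1, without shVCAN tumour 1 or without shVCAN tumour 3. TK1, the thymidine kinase of the salvage route, had 80.1, 85.2 and 74.5 CPM in shVCAN tumours and 69.4, 79.6 and 61.7 CPM in shGFP tumours. The groups overlapped and TK1 was not called (log2 fold change 0.19, adjusted p = 0.055), while without shGFP tumour 2 it was 0.30 and called (adjusted p = 0.00534), and it was also called without shVCAN tumour 3 (0.24, adjusted p = 0.0333).

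**Figure D3:**
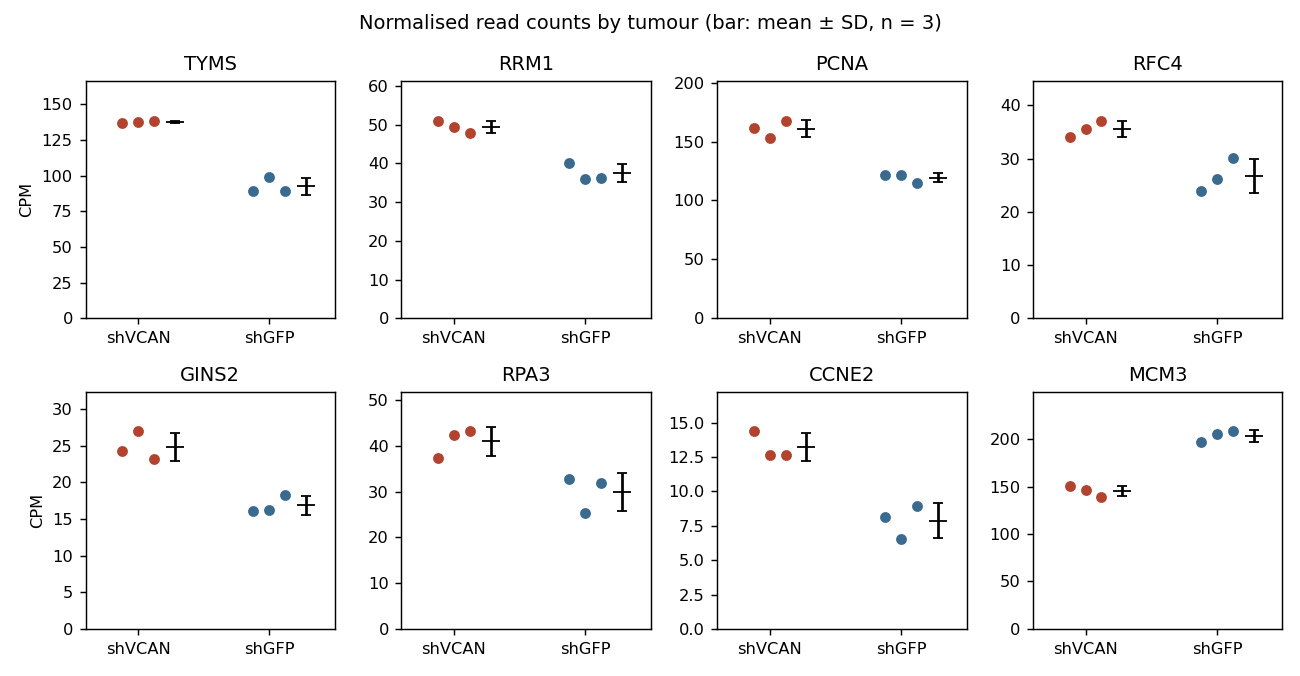
Level in CPM (y axis, from 0) of 8 genes in each tumour, shVCAN in red and shGFP in blue, with mean ± SD (n = 3 each) beside the points. The 3 shVCAN tumours lie above all shGFP tumours for TYMS, RRM1, PCNA, RFC4, GINS2, RPA3 and CCNE2 and below them for MCM3.

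Licensing showed 1 higher and 1 lower gene of 10, against 19.2% and 21.1% of all tested genes, with a median log2 fold change of 0.06. None of the 4 genes that mark and load origins was called: ORC1 and ORC6, subunits of the origin recognition complex, had log2 fold changes of -0.28 (adjusted p = 0.226) and 0.14 (adjusted p = 0.222). The loading factors CDC6 and CDT1 had 0.12 (adjusted p = 0.314) and 0.08 (adjusted p = 0.656). ORC1 was the only one of these 4 whose groups did not overlap, with 6.75, 7.55 and 5.98 CPM in shVCAN tumours and 7.91, 8.73 and 7.95 CPM in shGFP tumours. The 95% interval of its log2 fold change ran between -0.62 and 0.07, so a fall of that size was not separable from 0 at this depth, at which ORC1 had 82 to 107 counts per tumour.

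The 6 subunits of the MCM2-7 ring, which act in equal numbers in 1 complex, did not move together. MCM3 had 150.3, 146 and 139 CPM in shVCAN tumours and 197, 205 and 208 CPM in shGFP tumours, and the highest shVCAN tumour lay well under the lowest shGFP tumour. MCM3 (chromosome 6, 52264009 to 52284881, minus strand, no exonic base shared with another gene) was lower at a log2 fold change of -0.48 (SE 0.0546, adjusted p = 1.8e-08), and of the 39 tested genes it had the largest fall. MCM6 had 46.7, 52.6 and 47.5 CPM in shVCAN tumours and 45.0, 39.4 and 40.1 CPM in shGFP tumours. Its groups did not overlap, and it was called higher at a log2 fold change of 0.24 (SE 0.0829, adjusted p = 0.0228). Its call was lost without shGFP tumour 2, shGFP tumour 3 or shVCAN tumour 2, with adjusted p values of 0.0817, 0.078 and 0.0965.

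The other 4 ring subunits were not called, and the groups overlapped for each of them. MCM2 had 58.3, 52.9 and 55.4 CPM in shVCAN tumours and 48.6, 57.6 and 48.9 CPM in shGFP tumours (log2 fold change 0.10). MCM4 had 55.7, 57.9 and 58.5 CPM in shVCAN tumours and 56.1, 57.7 and 56.0 CPM in shGFP tumours (0.02). The MCM4 values differed by no more than their spread. MCM5 had 56.9, 60.3 and 53.3 CPM in shVCAN tumours and 60.1, 61.3 and 61.3 CPM in shGFP tumours (-0.10). MCM7 had 142, 144 and 137 CPM in shVCAN tumours and 129, 146 and 140.1 CPM in shGFP tumours (0.03). The 95% interval of the log2 fold change ran between -0.12 and 0.16 for MCM4 and between -0.09 and 0.14 for MCM7, the narrowest intervals of the ring's uncalled subunits.

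The balance within the ring was measured in each tumour as the log2 of a subunit's CPM over the geometric mean of the other 5, a quantity that no library scaling changes. MCM3 stood at 1.19, 1.12 and 1.11 in shVCAN tumours and at 1.65, 1.65 and 1.74 in shGFP tumours. All shVCAN tumours were below all shGFP tumours, and the means were 1.14 ± 0.0477 and 1.68 ± 0.0494 (SD, n = 3 each), a difference of -0.54. MCM6 stood at -0.75 ± 0.0884 in shVCAN tumours and -1.07 ± 0.156 in shGFP tumours (SD, n = 3 each), a difference of 0.32. The exact two-sided permutation test over tumours gave p = 0.1 for MCM3, MCM6 and MCM7, the smallest that 3 against 3 tumours allow, and 0.2 after adjustment over the 6 subunits. MCM7 differed by 0.07, and MCM2, MCM4 and MCM5 by 0.17, 0.06 and -0.08 (exact p = 0.2 each). MCM3 is among the other 5 for each of these subunits, so its fall raises their ratios. The differences of MCM6 and MCM7 are therefore not separate from that of MCM3. By their own CPM, MCM6 and MCM7 had log2 fold changes of 0.24 and 0.03, and the groups overlapped for MCM7. In level per kb of exonic length, the order of the subunits was MCM3, MCM7, MCM6, MCM2, MCM4 and MCM5 in shVCAN tumours, at 39.8, 32.2, 11.9, 11.3, 8.23 and 7.75 CPM per kb. In shGFP tumours the values in that order of genes were 55.7, 31.5, 10.1, 10.5, 8.12 and 8.30 CPM per kb, so MCM3 and MCM7 lay far above the other 4 in both groups.

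**Figure D4:**
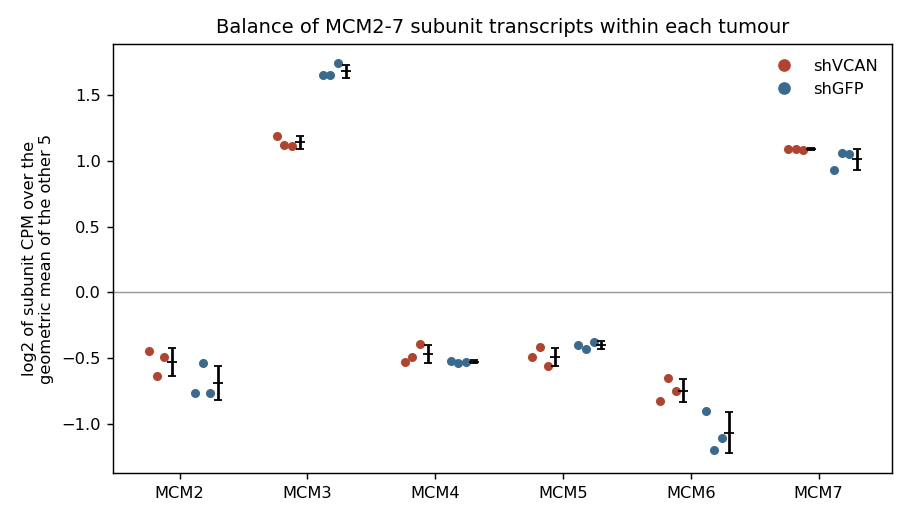
Log2 ratio of each MCM2-7 subunit to the geometric mean of the other 5 in the same tumour (y axis), shVCAN in red and shGFP in blue, with mean ± SD (n = 3 each). MCM3 averages 1.14 in shVCAN tumours and 1.68 in shGFP tumours, and MCM6 averages -0.75 and -1.07 in shVCAN and shGFP tumours.

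At the fork, 8 of 22 genes were higher (36.4%) and 1 was lower (4.55%), against 19.2% and 21.1% of all tested genes. The median log2 fold change of the 22 was 0.14. The genes called higher lay in helicase activation (2 of 6), in the polymerases and primase (2 of 6), in the clamp and its loader (2 of 5) and in single-strand binding (2 of 2). RPA1 and RFC1, the large subunits of the single-strand binding protein and of the clamp loader, are not among the 40 genes. Named after their values were seen, RPA1 and RFC1 were not called (log2 fold changes -0.08 and -0.05, edgeR adjusted p = 0.343 and 0.671). PCNA, the sliding clamp that holds polymerases on DNA, had 162, 153 and 168 CPM in shVCAN tumours and 122, 121 and 115 CPM in shGFP tumours. The groups did not overlap, and PCNA (chromosome 20, 5114953 to 5126626, minus strand) had a log2 fold change of 0.43 (SE 0.0578, adjusted p = 4.68e-07). Per kb of exonic length it had the highest level of the 40 genes in both groups, at 109 CPM per kb in shVCAN tumours and 81.2 CPM per kb in shGFP tumours.

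GINS2, a subunit of the GINS complex that activates the helicase, had 24.3, 27.0 and 23.1 CPM in shVCAN tumours and 16.1, 16.2 and 18.3 CPM in shGFP tumours. Its log2 fold change was 0.56 (SE 0.114, adjusted p = 0.000185), and the groups did not overlap. RFC4, a subunit of the complex that loads the clamp, had 34.0, 35.6 and 37.1 CPM in shVCAN tumours and 23.9, 26.1 and 30.1 CPM in shGFP tumours. Its log2 fold change was 0.41 (SE 0.0985, adjusted p = 0.00106), and again every shVCAN tumour was above every shGFP tumour. RPA3, the small subunit of the protein that coats single-stranded DNA, had 37.4, 42.4 and 43.2 CPM in shVCAN tumours and 32.7, 25.3 and 31.9 CPM in shGFP tumours. RPA3 was higher by a log2 fold change of 0.45 (SE 0.0981, adjusted p = 0.000423), without overlap. The antisense neighbour of GINS2, GSE1, was lower (log2 fold change -0.61, adjusted p = 3.73e-06), and that of RFC4, EIF4A2, was not called (0.07, adjusted p = 0.251). GINS2 and RFC4 share under 1% of their exonic bases with other genes, at 0.214% and 0.701%.

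The other 4 higher fork genes had larger adjusted p values or smaller fold changes. RPA2, the middle subunit of the single-strand binding protein, averaged 58.4 ± 1.31 CPM in shVCAN tumours and 48.0 ± 0.911 CPM in shGFP tumours (SD, n = 3 each), a log2 fold change of 0.28 with an adjusted p of 0.0024 from edgeR. GINS1, another GINS subunit, averaged 53.9 ± 2.6 CPM in shVCAN tumours and 46.0 ± 5.92 CPM in shGFP tumours (0.23, edgeR adjusted p = 0.032). The primase PRIM1, which starts each new strand with a short RNA, averaged 7.47 ± 1.01 CPM in shVCAN tumours and 5.14 ± 1.09 CPM in shGFP tumours (0.54, edgeR adjusted p = 0.0324). POLA2, the second subunit of polymerase alpha, averaged 14.7 ± 1.2 CPM in shVCAN tumours and 11.3 ± 2.48 CPM in shGFP tumours (0.38, edgeR adjusted p = 0.0439). PRIM1 and POLA2 were low in level, and POLA2 had the widest spread of the tested genes within shGFP tumours (coefficient of variation 22.1%). PRIM1 shares 21.6% and POLA2 35.1% of exonic bases with other genes. The antisense neighbour of PRIM1, HSD17B6, with 26.9% of its counts, was not called (0.86, edgeR adjusted p = 0.11). The call of GINS1 was lost without shGFP tumour 1 or shVCAN tumour 3. That of POLA2 was lost without any 1 of 5 tumours, shGFP tumour 3 being the exception, and that of PRIM1 without any of 4, shGFP tumour 3 and shVCAN tumour 2 being the exceptions.

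LIG1, DNA ligase 1, which seals the nicks between Okazaki fragments, had 38.8, 41.6 and 37.5 CPM in shVCAN tumours and 46.4, 47.2 and 51.6 CPM in shGFP tumours. The groups did not overlap, and LIG1 was lower at a log2 fold change of -0.30 (SE 0.0818, adjusted p = 0.00386), a call that scaling by library size only ended (-0.13, adjusted p = 0.21). FEN1, the flap nuclease that acts just before the ligase, had a log2 fold change of 0.11 and was not called (adjusted p = 0.174). Its antisense neighbour TMEM258, with 93.7% of the counts of FEN1, was called higher (0.41, edgeR adjusted p = 1.19e-05). The 2 enzymes of lagging strand joining thus differed in the sign of their values, and the difference between them was not tested.

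The remaining 12 fork genes were not called, with log2 fold changes between -0.15 and 0.33. Among the polymerases, the catalytic subunits POLA1 and POLE had 0.02 and 0.11, POLE2, the second subunit of polymerase epsilon, had 0.33 (adjusted p = 0.113), and POLD1, the catalytic subunit of polymerase delta, had -0.15 (adjusted p = 0.14). POLD1 was called lower without shVCAN tumour 2 (-0.24, adjusted p = 0.0148). In helicase activation, MCM10 had a value of 0.00, CDC45 0.10, GINS3 0.08 and GINS4 0.02. The clamp loader subunits RFC2, RFC3 and RFC5 had 0.10, 0.18 and 0.21, and RFC5 was called without shGFP tumour 1 (0.31, adjusted p = 0.0376). RFC5 shares 10.6% of its exonic bases with other genes. Its antisense neighbour WSB2, with 220% of the counts of RFC5, was called higher (0.40, edgeR adjusted p = 8.63e-05). UHRF1, which reads half-methylated DNA behind the fork, had 0.02. Within complexes the calls were therefore divided: GINS1 and GINS2 were called and GINS3 and GINS4 were not, and of RFC2, RFC3, RFC4 and RFC5 it was RFC4 that was called, though differences between subunits were not tested.

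Of the regulators, E2F1, an activating E2F factor, had 64.3, 56.7 and 60.8 CPM in shVCAN tumours and 53.0, 54.8 and 49.4 CPM in shGFP tumours. The groups did not overlap, and the log2 fold change was 0.21 (SE 0.0754, adjusted p = 0.0263). The call of E2F1 was lost without any 1 of 4 tumours, with log2 fold changes of 0.16 to 0.22 in those fits. CCNE2, cyclin E2, had 14.4, 12.6 and 12.6 CPM in shVCAN tumours and 8.16, 6.50 and 8.95 CPM in shGFP tumours. CCNE2 did not overlap between groups and had the largest log2 fold change of the 39 tested genes, 0.74 (SE 0.157, adjusted p = 0.000293). It was low in level, with 98, 70 and 98 counts in shGFP tumours. In CCNE2, 37.1% of exonic bases are shared, and the antisense neighbour INTS8, with 506% of its counts, was also called higher (0.20, adjusted p = 0.0385). CCNE1, cyclin E1, was not called (-0.07, adjusted p = 0.688). E2F2 had 0 counts in all 6 tumours, which at a floor of 3 counts allows up to 0.212 to 0.279 CPM per tumour. ASF1B, a histone chaperone used in every S phase, was listed at 0 as well, so a 0 in this table is not read as absence of the transcript.

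Beyond the 40 genes, 91 further genes of the same pathways were listed and 87 were tested. Of these 25 were higher (28.7%) and 11 were lower (12.6%), against 19.2% and 21.1% of all tested genes. The median log2 fold change of the 87 was 0.02. In licensing 4 of 6 were higher (66.7%) and none lower. GMNN, geminin, which inhibits CDT1 and so blocks a second licensing, averaged 49.9 ± 4.48 CPM in shVCAN tumours and 29.5 ± 3.25 CPM in shGFP tumours (SD, n = 3 each), a log2 fold change of 0.76 with an edgeR adjusted p of 8.78e-08. ORC4, another subunit of the origin recognition complex, averaged 40.8 ± 4.69 CPM in shVCAN tumours and 29.7 ± 3.9 CPM in shGFP tumours (0.46). Geminin and ORC4 thus rose although ORC1, ORC6, CDC6 and CDT1 were not called.

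Of 31 further fork genes, 8 were higher (25.8%) and 3 lower (9.68%), against 19.2% and 21.1% of all tested genes. POLE4, a small subunit of polymerase epsilon, averaged 41.9 ± 1.82 CPM in shVCAN tumours and 27.1 ± 2.9 CPM in shGFP tumours (log2 fold change 0.63). TOP2A, the topoisomerase that untangles copied DNA, averaged 113 ± 6.5 CPM in shVCAN tumours and 81.1 ± 3.39 CPM in shGFP tumours (0.48). ATAD5, which unloads the clamp, was lower, with 4.23 ± 0.922 CPM in shVCAN tumours and 6.27 ± 0.305 CPM in shGFP tumours (-0.57, edgeR adjusted p = 0.0374), and CHAF1A, a subunit of the histone chaperone CAF-1, was lower by a log2 fold change of -0.27. The call of ATAD5 was lost in 5 of the 6 fits that left out a tumour, the fit without shVCAN tumour 3 being the exception, and that of CHAF1A without shGFP tumour 2, shVCAN tumour 1 or shVCAN tumour 3. The antisense neighbour of CHAF1A, UBXN6, with 299% of its counts, was also called lower (-0.33).

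Of 31 further genes of nucleotide metabolism, 11 were higher (35.5%) and 5 lower (16.1%), against 19.2% and 21.1% of all tested genes. NME1, a nucleoside diphosphate kinase, averaged 170.4 ± 10.3 CPM in shVCAN tumours and 92.9 ± 8.43 CPM in shGFP tumours, and its log2 fold change of 0.88 was larger than that of any of the 40 genes. DCTPP1, a phosphatase that clears dCTP, averaged 124 ± 3.04 CPM in shVCAN tumours and 73.9 ± 4.32 CPM in shGFP tumours (0.75). The antisense neighbour of DCTPP1, ZNF771, was also higher (0.58). Among the lower genes, ADSS2, adenylosuccinate synthase, averaged 32.5 ± 2.77 CPM in shVCAN tumours and 42.0 ± 1.32 CPM in shGFP tumours (-0.37), and MTHFD1, which supplies one-carbon units, had a log2 fold change of -0.27. Other enzymes of purine synthesis, named after their values were seen, did not share a direction: PPAT (0.40), PAICS (0.33) and IMPDH2 (0.15) were called higher, IMPDH1 (-0.22) was called lower, and GART, ATIC and GMPS were not called. Of 19 further E2F and cyclin genes, 2 were higher (10.5%) and 3 lower (15.8%), both shares below those of all tested genes. CCNA2, cyclin A2, averaged 28.6 ± 4.7 CPM in shVCAN tumours and 21.2 ± 1.15 CPM in shGFP tumours (0.43), and LIN9, a subunit of the DREAM and MuvB complexes, averaged 24.3 ± 2.43 CPM in shVCAN tumours and 18.6 ± 1.66 CPM in shGFP tumours (0.38, a call lost without shVCAN tumour 3). The antisense neighbour of CCNA2, EXOSC9, with 96.9% of its counts, was also called higher (0.47). E2F7, a repressor among the E2F factors, fell to 22.9 ± 1.36 CPM in shVCAN tumours, against 33.4 ± 5.43 CPM in shGFP tumours (-0.54), and CDK2, the kinase partner of cyclin E, to 39.6 ± 2.48 CPM, against 47.7 ± 1.49 CPM (-0.27, a call lost without shVCAN tumour 1).

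With scaling by library size only, the lower calls of ADSS2, ATAD5, CDK2, CHAF1A and MTHFD1 were lost, and with the offset for length and GC content described next so were the calls of CCNA2, CHAF1A and MTHFD1.

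Fold change moved with gene length and base composition. Across the 39 genes, Spearman's rho of the log2 fold change was -0.44 with exonic length and -0.43 with GC content, and across 15997 tested genes with both values it was -0.23 and -0.11; genes are not independent replicates, and these share libraries. The 14 higher genes had a median exonic length of 3.25 kb, the 2 lower genes 5.12 kb and the 23 uncalled genes 4.39 kb. With per-tumour offsets that take out the trend with length and GC content, 11 of the genes were higher and 1 lower, against 19.6% higher and 19.4% lower of all genes in that fit. MCM3 stayed at -0.47, TYMS at 0.47, GINS2 at 0.52 and CCNE2 at 0.58, and PCNA, the shortest of the 39 genes, had 0.19 and was still called (adjusted p = 0.00234). The calls of E2F1, GINS1, LIG1, MCM6, PRIM1 and RPA2 were lost, and POLE, the longest gene at 16.6 kb of exonic bases, was called higher at 0.38 (adjusted p = 4.54e-05), as was MCM2 at 0.23 (adjusted p = 0.0122). Whether the trend reflects the RNA or the libraries was not tested.

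**Figure D5:**
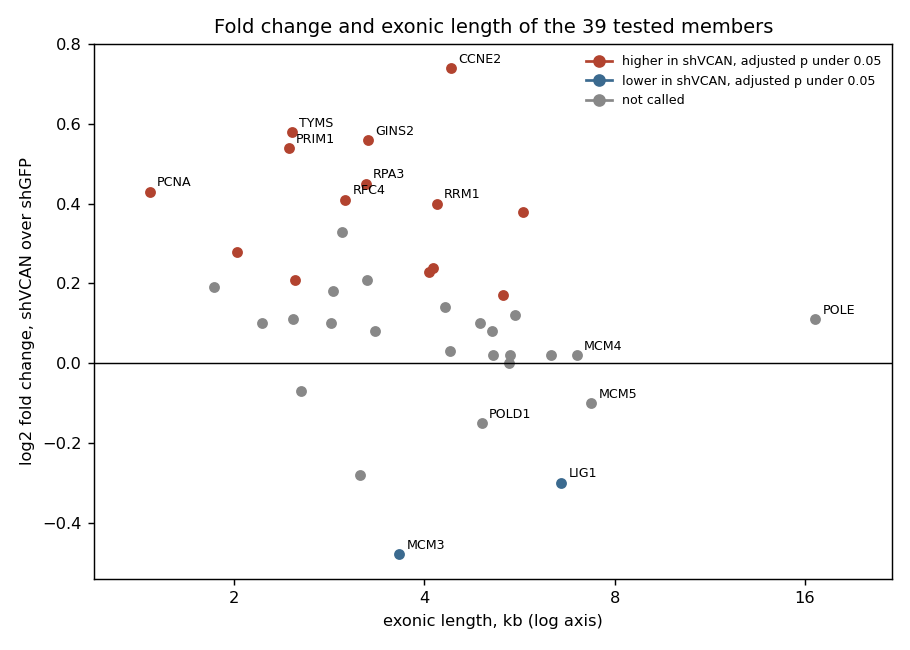
Log2 fold change of shVCAN over shGFP tumours (y axis) against exonic length in kb (x axis, log scale) for the 39 tested genes, coloured by call. Genes called higher have a median length of 3.25 kb, while POLE, at 16.6 kb, lies at 0.11.

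Of the 16 called genes, 8 kept their call and direction in all 17 alternative fits: TYMS, PCNA, RRM1, GINS2, RFC4, RPA3 and CCNE2 as higher and MCM3 as lower. The other 8 lost the call in 2 to 8 of the fits, and the DESeq2 Wald test did not call E2F1, GINS1, MCM6, POLA2, PRIM1 or RRM2. Over those 17 fits the log2 fold change ran from 0.47 to 0.74 for TYMS, from 0.50 to 0.73 for GINS2, from 0.58 to 0.91 for CCNE2 and from -0.51 to -0.32 for MCM3. PCNA ran from 0.19 to 0.60, RRM1 from 0.35 to 0.57, RFC4 from 0.30 to 0.58 and RPA3 from 0.35 to 0.62.

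Across the series, libraries held 12959840, 13327617 and 13134546 counts in shVCAN tumours and 12936539, 11253058 and 11633764 counts in shGFP tumours, and the highest count of the 40 genes in a tumour was 2364, for MCM3. VCAN, the target of the knockdown, had 69, 39 and 44 counts in shVCAN tumours and 133, 104 and 121 counts in shGFP tumours (log2 fold change -1.53, edgeR adjusted p = 4.59e-07), and no shVCAN tumour reached a shGFP tumour. Mitochondrial messenger RNAs took 6.82 ± 0.701% of counts in shVCAN tumours and 14.9 ± 1.43% in shGFP tumours (SD, n = 3 each, exact permutation p = 0.1, the smallest that 3 against 3 tumours allow). With library size only, the median log2 fold change was 0.168 over all genes and 0.29 over the 39 genes, of which 27 were then higher and 1 lower. Lists of marker genes of cell types found in host tissue were also counted, beside 21.1% of all tested genes called lower. Of 5 tested endothelial genes, 4 were lower (sum 50.3 to 54.3 CPM in shVCAN tumours, 91.1 to 92.2 CPM in shGFP tumours). Of 6 tested fibroblast and pericyte genes, 5 were lower (363 to 462 CPM, against 813 to 921 CPM, with DCN at 0 except for 5 counts in 1 shGFP tumour). COL1A1 averaged 300 CPM in shVCAN and 619 CPM in shGFP tumours, and LUM 0.577 and 1.34 CPM. Most of the endothelial sum came from PECAM1 (means of 24.1 CPM in shVCAN and 33.4 CPM in shGFP tumours) and KDR (24.0 and 45.5 CPM). The endothelial genes EMCN, CLDN5 and VWF were too low to test, and VWF was not lower (0.241 and 0.214 CPM). Of the fibroblast and pericyte list, PDGFRB was also too low to test and not lower (0.742 and 0.542 CPM). Of 5 tested skeletal muscle genes, 4 were lower (154 to 231 CPM in shVCAN tumours, 205 to 359 CPM in shGFP tumours, TNNT3 at 0 in both). The groups overlapped for the called muscle genes ACTA1, MYH1 and MYH2. Macrophage genes summed to 0.581 to 2.04 CPM in shVCAN tumours and 1.33 to 2.97 CPM in shGFP tumours, with AIF1, CD163 and TYROBP at 0 in all 6. The rows of these lists carry human gene IDs, and whether their counts came from PC-3 cells or from mouse reads was not tested. The part of mitochondrial share and of any host cells in the calls above was not tested either. As is known of PC-3 cells, the androgen targets KLK3 and KLK2 were at 0 in all tumours. The keratins KRT8 and KRT18 were present and lower in shVCAN tumours (log2 fold changes -0.19 and -0.54, edgeR adjusted p = 0.00463 and 5.51e-10), VIM was present and not called (-0.04), and TMPRSS2, also listed as low in PC-3, was at 148 CPM in shVCAN tumours and 159.8 CPM in shGFP tumours.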

How the data were processed

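RNA from 3 shVCAN and 3 shGFP xenograft tumours was sequenced as paired 150 bp reads. The deposited table holds raw counts, whole and not normalised, as the authors made them. The submitters' processing notes list Trim Galore, STAR, DESeq2 and hg38. Not given in the sources used here are the counter, its annotation and strand setting, and whether reads of the mouse host were removed, which otherwise can count as human. A further experimental group in the growth protocol was not analysed here.

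Of 67071 rows, 45 pseudoautosomal copies with 0 counts were left out. Symbols came from a symbol table (60370) and GENCODE 29 (289). Lengths, GC content and coordinates came from GENCODE 29 on GRCh38. Groups were compared with edgeR 4.0.16 (R 4.3.3, TMM scaling, filterByExpr, quasi-likelihood test, group as only term), with Benjamini-Hochberg adjustment over 16254 genes and a call at adjusted p under 0.05. The SE is the log2 fold change, without its sign, divided by the square root of F. The 95% intervals are the log2 fold change ± 1.96 SE, which is narrower than the F test allows. For POLE2 the interval was 0.01 to 0.66, at an unadjusted edgeR p of 0.0544. Fits were checked on simulated counts with the same dispersion for all genes and few changed genes. The data differ from that setting, as 40.3% of tested genes were called, so the check does not cover it. Intervals and floors cover counting or fitted error only, and libraries of a group differed by more than counting error (chi-square per gene 3.45 to 6.61).

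The 40 genes and the lists were chosen with earlier results of these data known. Values per tumour are given for up to 4 called genes per step and direction with the smallest p and for the MCM2-7 subunits, and, as exceptions chosen after their values were seen, for TK1 and ORC1. Further pathway genes are named for up to 2 called per direction and list. RPA1, RFC1 and the other enzymes of purine synthesis were named after their values were seen. Other genes are given as means or fold changes, and 4 windows of higher genes were printed by smallest p among those with an E2F word. As alternatives the scaling (size factors of DESeq2, upper quartile, library size only), 2 filters, the DESeq2 1.42.0 Wald test, limma 3.58.1 voom, the replicate number as a block, a length and GC offset (splines with 4 degrees of freedom, fitted above 4 CPM), both of these together, each tumour left out and adjusted p under 0.01 were tried.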

Additional observations from a re-analysis of the deposited data

How the results depend on the processing

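The counts of genes called among the 39 changed with the scaling and the test. Library size only gave 27 higher and 1 lower, and over all genes 5228 higher and 1890 lower. The DESeq2 Wald test and an adjusted p under 0.01 each left 8 higher. The length and GC offset left 1 lower gene, also with the replicate block. Leaving out a tumour gave 10 to 12 higher and 2 to 3 lower, and a log2 fold change of -1.83 to -1.36 for VCAN. For the further pathway genes, library size only gave 41 higher and 1 lower, upper quartile factors and no filter each 7 lower, the DESeq2 Wald test and an adjusted p under 0.01 each 6 lower, and leaving out a tumour 6 to 12 lower. Calls that were higher made up 87.5% of calls among the 39 genes, 69.4% among the further pathway genes and 47.7% of all calls. These shares were 96.4%, 97.6% and 73.4% with library size only, and 80.0% for the further pathway genes with upper quartile factors. With TTCCCGCC as the E2F word, 10 of the 34 windows held one, against 3.18% of gene windows. Some uncalled genes changed sign. With library size only CCNE1 had 0.093, MCM5 0.0675 and POLD1 0.0133. With the length and GC offset MCM5 had 0.0905, RFC2 -0.00542 and RFC3 -0.0642, and with the offset and replicate block 0.0902, -0.00374 and -0.0631. Without a tumour, CDT1 ran from -0.0659 to 0.18, GINS3 from -0.00218 to 0.20, GINS4 from -0.0582 to 0.10, MCM10 from -0.0967 to 0.0904, MCM7 from -0.0124 to 0.0793, POLA1 from -0.0564 to 0.0665 and UHRF1 from -0.0338 to 0.0975. The cause was not tested.

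Tumours of 1 number did not deviate together (correlations of 0.0176, 0.0157 and -0.0271), and tumours of different numbers had correlations of -0.0365 to 0.0208. These values cannot show whether tumours of 1 number shared a mouse or a batch. The replicate block gave 15 higher and 2 lower of the 39 genes, with TK1 added (adjusted p = 0.0242), and MCM10 at -0.000397. It left every other call among the 39 genes as it was. Depth limits 6 genes with under 100 counts in some tumour: ORC1, POLA2, PRIM1, POLE2, CCNE2 and E2F2.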
